A study of Mus musculus with 9 samples.

Results

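A set of 9 genes of signalling by extracellular nucleotides and adenosine was examined in the forebrain of *Npas3*-deficient mouse embryos. They were the receptor genes *P2rx4*, *P2rx7*, *P2ry1*, *Adora1* and *Adora2b* and the ectoenzyme genes *Alpl*, *Entpd1*, *Entpd2* and *Nt5e*, or 9 of the 55401 genes counted. They were chosen by symbol, with results of the comparison between genotypes already known. Their differences between genotypes are therefore given as descriptions, with a fold change and its interval but no p-value. RNA-seq counts were available for 5 WT (*Npas3*+/+) and 4 HET (*Npas3*+/-) female embryos at E16 to E17. The HET mice carried a constitutive deletion of 1 *Npas3* copy on the C57BL/6J background, and the WT embryos were littermates. Depth ranged from 42640218 to 62830060 counts per embryo. *Npas3* itself, a bHLH-PAS transcription factor gene at chr12:53248677-54072175 (GRCm38), was at 40.8, 35.4, 29.7, 38.3 and 37.0 CPM (counts divided by the TMM-adjusted library total, on the usual CPM scale) in WT embryos 5, 15, 16, 41 and 43. It was at 27.9, 28.2, 34.1 and 27.8 CPM in HET embryos 5, 6, 7 and 24, so HET embryo 7 lay inside the WT range. Its log2 fold change was −0.30 (SE 0.10); edgeR's quasi-likelihood test gave it an adjusted p of 0.877.

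The submitters' labels name astrocytes as the cell type of these samples and bulk forebrain as their source. The 8 neuronal markers summed to 5231 to 5947 CPM per embryo and the 8 astrocyte and radial glia markers to 941.0 to 1374 CPM. *Gfap*, the classical astrocyte marker, was at 4.23 to 12.5 CPM. In such bulk tissue, fewer cells of a type and less RNA per cell cannot be told apart.

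ATP and ADP that leave a cell act on P2 receptors of neighbouring cells. P2X receptors are ATP-gated cation channels, whereas P2Y receptors are coupled to G proteins. Ectoenzymes on the cell surface then shorten the nucleotides stepwise to adenosine, which acts on P1 (adenosine) receptors. In the brain this system carries signals among astrocytes, microglia, blood vessels and neurons, and adenosine acting on its A1 receptor dampens transmitter release.

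A receptor gene and an ectoenzyme gene stood apart in HET forebrain. *Alpl*, which encodes tissue-nonspecific alkaline phosphatase, fell to 16.0% of the WT mean, and *P2rx7*, which encodes the P2X7 channel, fell to 30.6%. *Nt5e* (CD73), the enzyme that turns AMP into adenosine, had a HET mean at 51.7% of the WT mean and did not pass the threshold. The HET means of the other 6 genes were between 78.4% and 128.9% of the WT means. In edgeR's test over 17818 genes, 2 of the 9 genes were lower and 0 were higher at an adjusted p under 0.05, where 0.14% of all genes tested passed, 0.112% lower and 0.0281% higher. HET and WT embryos did not overlap for 4 of the 9 genes, 3 lower and 1 higher, against 1.85% of all genes, 1.07% lower and 0.786% higher. The median log2 fold change was −0.31 over the 9 genes and 0.00 over all genes tested. Because the genes were chosen with this comparison known, nothing is read from these shares.

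**Figure D1:**
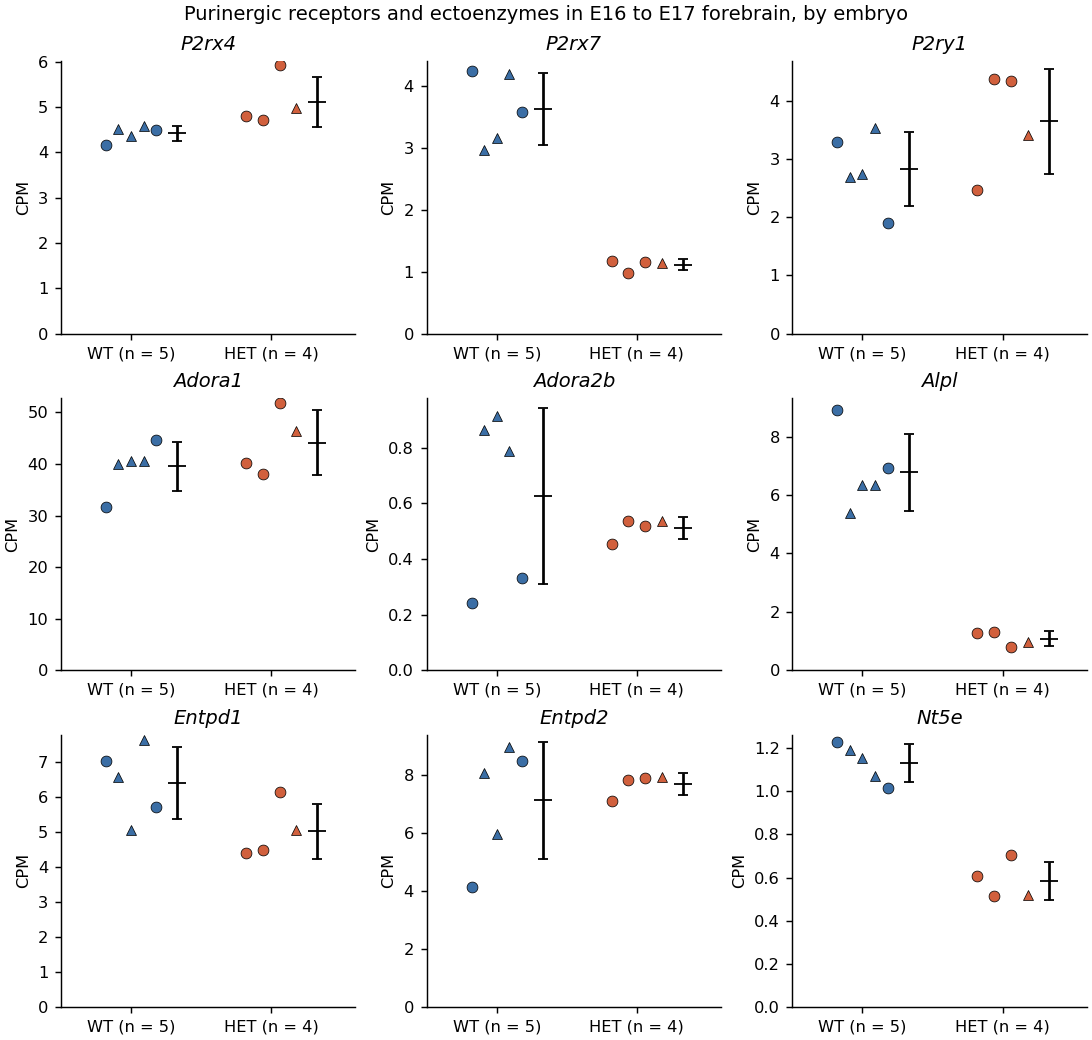
CPM of each of the 9 genes (y axis, from 0) in every WT embryo (blue, n = 5) and HET embryo (orange, n = 4). Triangles are the embryos with *Ttr* over 100 CPM, bars beside the points are the mean and SD, and only *Alpl*, *P2rx7* and *Nt5e* have all HET embryos below all WT embryos.

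*P2rx7* (ENSMUSG00000029468, chr5:122643911-122691432, plus strand) encodes a channel that opens at high ATP concentrations and is known for its part in inflammation. It was at 4.23, 2.96, 3.15, 4.19 and 3.58 CPM in WT embryos 5, 15, 16, 41 and 43. In HET embryos 5, 6, 7 and 24 it was at 1.17, 0.978, 1.16 and 1.13 CPM. In CPM the HET embryos were closer to each other than the WT embryos were, at a lower mean level. The highest HET value lay below the lowest WT value. The means were 3.62 ± 0.582 CPM in WT (SD, n = 5), against 1.11 ± 0.0888 CPM in HET (SD, n = 4). In the fit this was a log2 fold change of −1.71 (SE 0.16, 95% interval −2.05 to −1.36). These values rest on 42 to 266 counts per embryo.

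*P2rx4* (ENSMUSG00000029470, chr5:122707544-122729738), the gene of the P2X4 channel, lies on the same strand, 16111 bases from *P2rx7*. It was at 4.16, 4.51, 4.37, 4.59 and 4.50 CPM in WT embryos 5, 15, 16, 41 and 43. It was at 4.81, 4.73, 5.93 and 4.97 CPM in HET embryos 5, 6, 7 and 24. Every HET embryo was above every WT embryo, although by little. The log2 fold change of *P2rx4* was 0.21 (SE 0.11, 95% interval −0.03 to 0.45), and *P2rx4* did not pass the threshold. Another annotated gene lies between them, and of this pair *P2rx7* was the one that fell.

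*P2ry1* (ENSMUSG00000027765, chr3:61002795-61008982) encodes P2Y1, a receptor for ADP that raises intracellular calcium. In WT embryos 5, 15, 16, 41 and 43 it was at 3.30, 2.698, 2.74, 3.53 and 1.90 CPM. In HET embryos 5, 6, 7 and 24 it was at 2.47, 4.38, 4.34 and 3.42 CPM. The groups overlapped, and the spread within each was wide. Its log2 fold change was 0.36 (SE 0.21, 95% interval −0.11 to 0.84), an interval that holds 0. An opposite-strand gene shares 23.1% of the exonic bases of *P2ry1*, and since the strand setting of the counting is not given, its counts are uncertain.

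Among the ectoenzymes, *Alpl* (ENSMUSG00000028766, chr4:137741733-137796384, minus strand) had the largest fold change. Its product removes phosphate groups from ATP, ADP, AMP and pyrophosphate, and also from pyridoxal phosphate, the circulating form of vitamin B6. *Alpl* was at 8.92, 5.37, 6.33, 6.35 and 6.91 CPM in WT embryos 5, 15, 16, 41 and 43. In HET embryos 5, 6, 7 and 24 it was at 1.28, 1.30, 0.785 and 0.960 CPM. No HET embryo came near the WT range, whose lowest value was that of WT embryo 15. The means were 6.78 ± 1.32 CPM in WT (SD, n = 5), against 1.08 ± 0.252 CPM in HET (SD, n = 4), from 38 to 403 counts per embryo. This amounted to a log2 fold change of −2.65 (SE 0.20, 95% interval −3.10 to −2.20).

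The study named the E-box, CANNTG, as the consensus site of NPAS3, so the 250 bases before the RefSeq starts of these genes (GRCm38.p6) were searched for it. Promoters of all 9 genes were in the table, 13 windows in all. The windows of *Alpl* and *P2rx7* are shown because these genes fell, and that of *P2rx4* because it lies close to *P2rx7* and did not pass. They are written 5′ to 3′ on the strand of the gene, and capitals mark each CANNTG.
Alpl, first start, chr4:137796385-137796634, minus strand: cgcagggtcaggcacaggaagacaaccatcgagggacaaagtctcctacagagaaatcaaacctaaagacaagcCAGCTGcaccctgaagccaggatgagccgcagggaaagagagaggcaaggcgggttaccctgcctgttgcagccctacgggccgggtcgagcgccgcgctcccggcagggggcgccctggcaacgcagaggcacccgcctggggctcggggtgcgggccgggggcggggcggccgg
Alpl, second start, chr4:137766476-137766725, minus strand: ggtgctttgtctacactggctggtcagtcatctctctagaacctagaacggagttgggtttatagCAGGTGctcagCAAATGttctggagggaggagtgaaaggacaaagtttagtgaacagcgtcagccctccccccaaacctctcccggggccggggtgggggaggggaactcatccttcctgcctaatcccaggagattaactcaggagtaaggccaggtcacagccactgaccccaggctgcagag
P2rx7, first start, chr5:122643677-122643926, plus strand: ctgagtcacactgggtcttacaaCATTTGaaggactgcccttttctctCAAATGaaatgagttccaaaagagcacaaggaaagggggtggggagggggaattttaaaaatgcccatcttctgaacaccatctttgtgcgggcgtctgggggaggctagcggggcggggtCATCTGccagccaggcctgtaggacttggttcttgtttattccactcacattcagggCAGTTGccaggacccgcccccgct
P2rx4, chr5:122707294-122707543, plus strand: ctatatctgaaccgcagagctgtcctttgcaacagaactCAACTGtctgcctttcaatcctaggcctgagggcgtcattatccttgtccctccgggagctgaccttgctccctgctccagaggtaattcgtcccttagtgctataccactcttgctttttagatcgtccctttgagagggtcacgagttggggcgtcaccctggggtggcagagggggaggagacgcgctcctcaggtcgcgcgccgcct
The first window of *Alpl* held 1 CANNTG and the second held 2. The window of *P2rx7* shown here held 4, the most of the 13 windows, and that of its second start held 2. The window of *P2rx4* held 1. Over all promoter windows the median was 1 CANNTG, with quartiles of 0 and 2. A CANNTG, which reads the same on both strands, was present in 10 of the 13 windows and in 66.2% of all 32851 promoter windows. The 3 windows without it were those of *P2ry1*, of the first start of *Adora1* and of the second start of *Entpd1*. CACGTG, which is one form of CANNTG, was in 0 of the 13 windows and in 6.02% of all windows. ACGTG on either strand, which every CACGTG also holds, was in 2 of the 13 windows, those of *Entpd2* and of the first start of *Adora1*, and in 16.6% of all windows. A match of letters is a description and not a binding site.

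*Nt5e* (ENSMUSG00000032420, chr9:88327197-88372092) encodes CD73, the surface enzyme that completes the path from ATP to adenosine. It was low in all embryos, at 1.23, 1.19, 1.153, 1.07 and 1.02 CPM in WT embryos 5, 15, 16, 41 and 43. In HET embryos 5, 6, 7 and 24 it was at 0.606, 0.512, 0.703 and 0.518 CPM. The groups did not overlap, and each was tight. Between the genotypes the log2 fold change was −0.95 (SE 0.16, 95% interval −1.31 to −0.59), from 22 to 68 counts per embryo. Its call depended on the method: it did not pass in edgeR's main test, whereas it passed in DESeq2, where 0.381% of genes passed, and in edgeR with only genes of at least 1 CPM in every embryo of a group, where 0.209% passed. *Nt5e* met that filter through the WT embryos alone, so its call there is no support.

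*Entpd1* (ENSMUSG00000048120, chr19:40612366-40741602) encodes CD39, which takes ATP and ADP down to AMP and is a familiar surface protein of microglia and vessels. It was at 7.05, 6.57, 5.07, 7.63 and 5.72 CPM in WT embryos 5, 15, 16, 41 and 43. The values in HET embryos 5, 6, 7 and 24 were 4.42, 4.49, 6.14 and 5.05 CPM. HET embryo 7 lay within the WT range. The log2 fold change was −0.35 (SE 0.15, 95% interval −0.68 to −0.02), and *Entpd1* did not pass the threshold after adjustment. *Entpd2* (ENSMUSG00000015085, chr2:25395874-25401321) encodes an ectoenzyme that prefers ATP and so leaves ADP. It was at 4.14, 8.07, 5.96, 8.95 and 8.46 CPM in WT embryos 5, 15, 16, 41 and 43. The values in HET embryos 5, 6, 7 and 24 were 7.10, 7.83, 7.87 and 7.91 CPM. The HET embryos lay inside the WT range. Its log2 fold change was 0.11 (SE 0.20, 95% interval −0.33 to 0.55), and without WT embryo 5 it was −0.03. Exons of *Npdc1* on the same strand cover 28.8% of the exonic bases of *Entpd2*, so its counts are uncertain.

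The adenosine receptor genes gave a different picture. *Adora1* (ENSMUSG00000042429, chr1:134199223-134235431), the gene of the inhibitory A1 receptor, was at 31.7, 40.1, 40.6, 40.7 and 44.7 CPM in WT embryos 5, 15, 16, 41 and 43. It was at 40.1, 38.0, 51.8 and 46.4 CPM in HET embryos 5, 6, 7 and 24. The groups overlapped, with a log2 fold change of 0.16 (SE 0.11, 95% interval −0.09 to 0.41). The counts of *Adora1* are uncertain, since *Mybph*, read from the other strand, shares 20.1% of its exonic bases.

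*Adora2b* (ENSMUSG00000018500, chr11:62248984-62266453), the gene of the low-affinity A2B receptor, was the rarest by counts, with 10 to 50 per embryo. It was at 0.241, 0.863, 0.913, 0.788 and 0.331 CPM in WT embryos 5, 15, 16, 41 and 43. The values in HET embryos 5, 6, 7 and 24 were 0.455, 0.536, 0.517 and 0.538 CPM. The HET embryos lay between WT embryos that were either high or low. The log2 fold change was −0.31 (SE 0.36, 95% interval −1.10 to 0.49). Its direction was not stable: adding a choroid plexus score to the fit gave 0.36, and keeping only embryos with *Ttr* under 100 CPM (2 WT and 3 HET) gave 0.80.

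**Figure D2:**
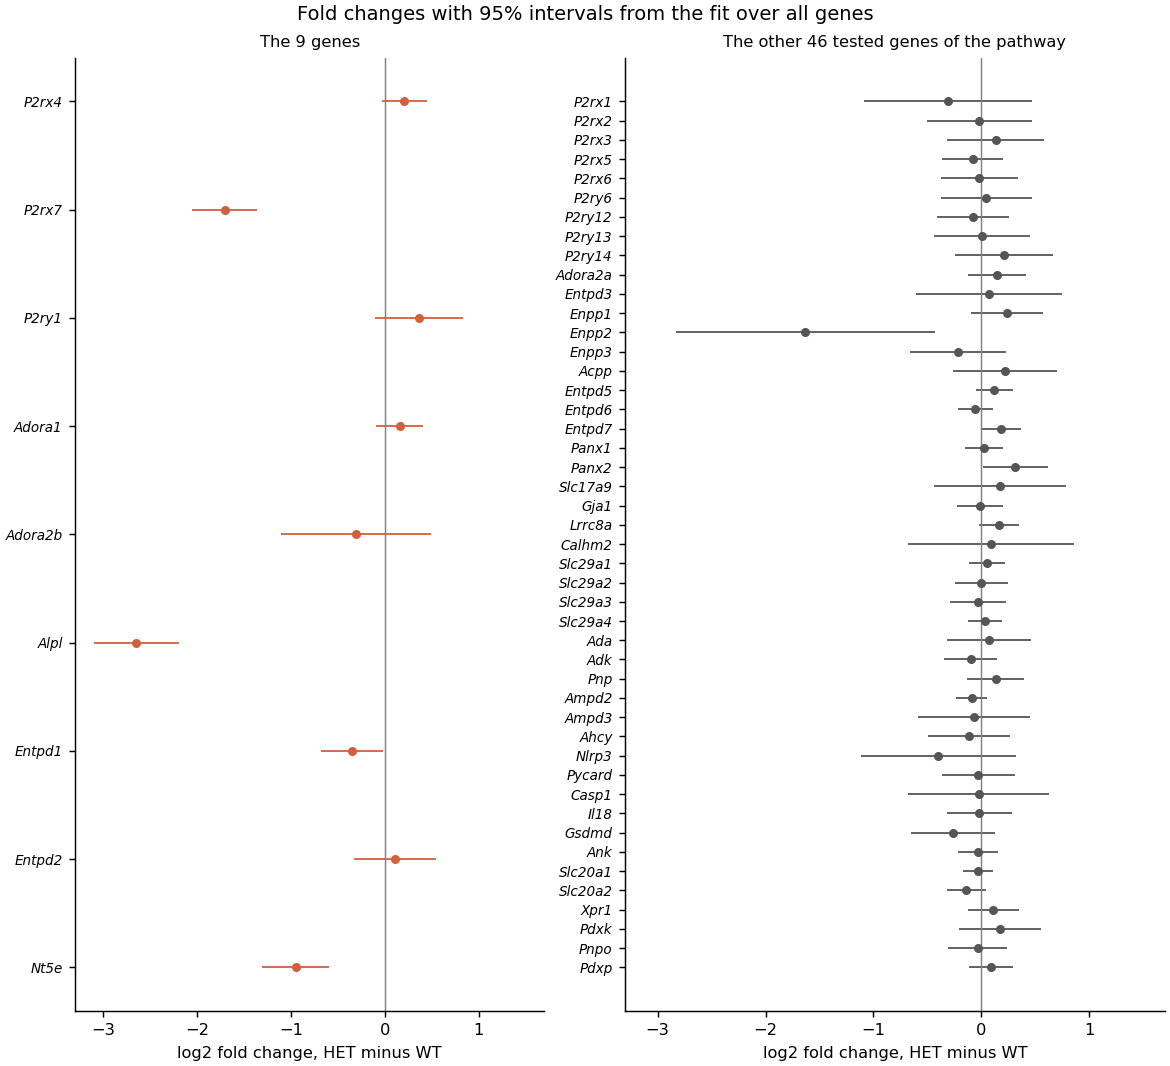
Log2 fold changes, HET minus WT (x axis), with 95% intervals from edgeR's fit over all genes, for the 9 genes (left) and the other 46 tested genes of the pathway (right). *Alpl* at −2.65 and *P2rx7* at −1.71 lie farthest from 0 among the 9, and *Enpp2* at −1.63 lies farthest among the rest, with a wide interval.

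Levels of different genes were compared as CPM per kilobase of exon. In WT forebrain *Adora1* was the most abundant of the 9 transcripts, at 6.84 ± 0.824 (SD, n = 5), and its WT range did not overlap that of *Entpd2*, the next, at 3.34 ± 0.948. *Alpl* followed at 1.68 ± 0.328 and *Entpd1* at 1.148 ± 0.183. *Entpd2* overlapped *Alpl*, and *Alpl* overlapped *Entpd1*, in their ranges over WT embryos. *P2ry1*, *P2rx4* and *P2rx7* lay together at 0.660, 0.630 and 0.607, each overlapping its neighbour. *Adora2b* was at 0.340 ± 0.172 and overlapped *Nt5e*, the lowest, at 0.132 ± 0.0101.

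In HET forebrain the order differed at *Alpl* and *P2rx7*. *Alpl* was at 0.268 ± 0.0625 CPM per kilobase (SD, n = 4), in place 7 of 9 rather than place 3. *P2rx7* was at 0.186 ± 0.0149, in place 8 rather than place 7. *Alpl* overlapped both *Adora2b*, at 0.277 ± 0.0210, and *P2rx7* in their ranges over HET embryos, whereas *P2rx7* remained above *Nt5e*, at 0.0680 ± 0.0104, without overlap. *Adora1* and *Entpd2* kept the first places. When the length of the longest transcript replaced that of all exons, 3 genes of the WT order changed place, *P2ry1*, *P2rx4* and *P2rx7*, the trio whose ranges overlapped.

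**Figure D3:**
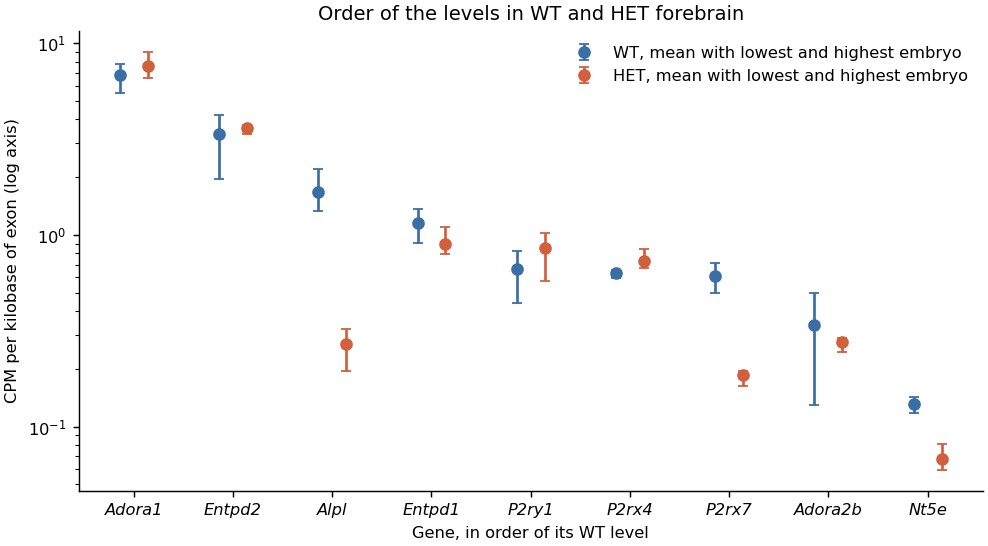
CPM per kilobase of exon (y axis, log scale) for the 9 genes in order of their WT level, with the mean as a point and bars from the lowest to the highest embryo, WT in blue (n = 5) and HET in orange (n = 4). *Alpl* dropped from 1.68 to 0.268 and *P2rx7* from 0.607 to 0.186, while *Adora1* and *Entpd2* stayed at the top.

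Ratios within an embryo do not depend on its depth or scaling. The ratio of *P2rx7* to *P2rx4*, per kilobase, was 1.20, 0.773, 0.849, 1.08 and 0.935 in WT embryos 5, 15, 16, 41 and 43. It was 0.286, 0.244, 0.230 and 0.268 in HET embryos 5, 6, 7 and 24. With the length of all exons, the 2 transcripts were thus of similar abundance in each WT embryo, and *P2rx4* exceeded *P2rx7* in each HET embryo. With the longest transcript as length, the WT means were 1.14 CPM per kilobase for *P2rx4* and 0.734 for *P2rx7*. The similarity in WT therefore depends on the length used. *Alpl* supplied 20.7% to 39.8% of the summed transcripts of the 4 ectoenzymes in WT embryos, and 3.84% to 7.01% in HET embryos. *Entpd2* supplied 34.95% to 58.9% in WT and 72.9% to 75.6% in HET embryos. *Entpd1* supplied 15% to 22.7% and 16.6% to 21.7%, with overlap. *Nt5e* held 1.71% to 2.56% in WT and 1.22% to 1.61% in HET embryos. The sum of the 4 was 6.30 ± 0.803 (SD, n = 5) in WT and 4.85 ± 0.237 CPM per kilobase (SD, n = 4) in HET embryos, without overlap. A higher share of *Entpd2* in HET therefore shows unequal change among the 4 transcripts, not a rise of *Entpd2*. The shares and the sum depend on the length used as well. With the longest transcript as length, the WT mean of *Alpl* was 2.69 CPM per kilobase rather than 1.68. The part of *Entpd2* is also uncertain, since its exons overlap those of *Npdc1*.

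**Figure D4:**
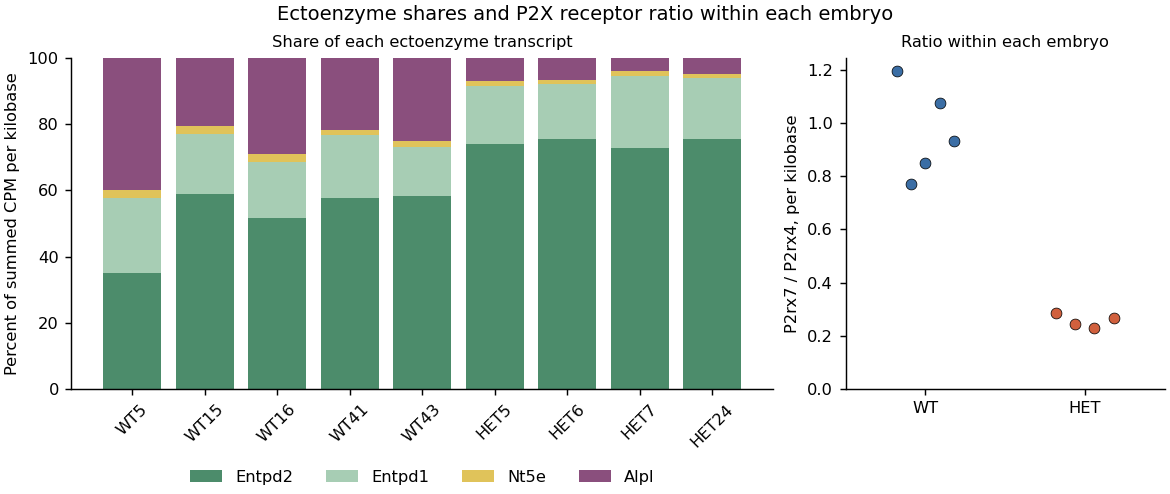
Left, the share of each ectoenzyme transcript in the summed CPM per kilobase of the 4 (y axis, percent) in every embryo; right, the ratio of *P2rx7* to *P2rx4* per kilobase in every embryo, WT in blue and HET in orange. *Alpl* takes at least 20.7% in each WT embryo and at most 7.01% in each HET embryo, and the ratios are at least 0.773 in WT and at most 0.286 in HET.

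The wider pathway was examined through 63 further genes listed by function. Of these, 46 had enough counts to be tested, and 9 had at most 3 counts in every embryo. In edgeR's test 0 of the 46 were higher and 0 were lower at an adjusted p under 0.05, as was also the case in DESeq2 and limma-voom. At an unadjusted p under 0.05, 1 was higher and 1 was lower, where 5.42% of all genes tested were, 2.32% higher and 3.09% lower. The median log2 fold change of the 46 genes was 0.00, 23 lay above and 23 below 0, and 1 exceeded 0.5 in size, where 5.67% of all genes tested did.

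Among the receptors, 0 of 5 other P2X, 0 of 4 tested P2Y and 0 of 1 tested adenosine receptor genes passed. *P2rx5* was the most abundant of these P2X genes per kilobase, at 3.67 ± 0.406 CPM in WT (SD, n = 5) and 3.47 ± 0.324 CPM in HET (SD, n = 4). *P2ry12*, the ADP receptor of microglia, was at 8.09 ± 1.49 CPM in WT (SD, n = 5), against 7.67 ± 1.07 CPM in HET (SD, n = 4). *Adora2a*, the receptor gene of striatal neurons, was at 3.21 ± 0.301 and 3.54 ± 0.333 CPM. Each of these 3 genes had overlapping groups.

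Among the 5 other ectonucleotidases tested, *Enpp2* (autotaxin, also a phosphodiesterase) had the lowest unadjusted p of the 46 genes. It was at 8.32, 50.1, 41.8, 50.2 and 8.48 CPM in WT embryos 5, 15, 16, 41 and 43. The values in HET embryos 5, 6, 7 and 24 were 8.73, 9.04, 8.89 and 14.4 CPM. The groups overlapped, since 3 WT embryos were high and the other 2 were at the HET level. The log2 fold change was −1.63 (SE 0.55), with an adjusted p of 0.857 from edgeR. The next 3 by p were *Panx2*, *Entpd7* and *Lrrc8a*, each with an adjusted p of 0.911 from edgeR's test. *Panx2*, a pannexin, had a log2 fold change of 0.31 (SE 0.14). *Lrrc8a*, a volume-regulated anion channel subunit, had 0.16 (SE 0.08). The counts of *Lrrc8a* are uncertain, since same-strand genes share 66.2% of its exonic bases. *Entpd7*, an intracellular relative of *Entpd1*, had 0.18 (SE 0.08) and was the only one of the 46 whose groups did not overlap, at 9.01 to 10.05 CPM in WT and 10.06 to 11.3 CPM in HET embryos. That is 1 of 46, where 1.85% of all genes tested did not overlap.

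Of the tested genes for ATP release 0 of 6 passed, and of those for adenosine uptake and metabolism 0 of 10. *Panx1*, the main pannexin channel for ATP, was at 149.7 ± 8.12 CPM in the 5 WT embryos and 152.6 ± 17.8 CPM in the 4 HET embryos (SD), with a log2 fold change of 0.03 (95% interval −0.15 to 0.20). *Slc29a4*, a nucleoside and monoamine transporter, was at 87.5 ± 4.49 and 89.6 ± 8.11 CPM (95% interval of the log2 fold change −0.12 to 0.19). Of the 6 inflammasome genes listed downstream of P2X7, 5 were tested and 0 passed. Their most abundant member per kilobase, *Il18*, was at 7.92 ± 1.24 CPM in WT (SD, n = 5) and 7.83 ± 0.860 CPM in HET (SD, n = 4). Of 8 genes of phosphate, pyrophosphate and vitamin B6 handling, the substrates of *Alpl*, 7 were tested and 0 passed. *Xpr1*, a phosphate exporter and the most abundant of them per kilobase, was at 611.4 ± 85.8 and 660.5 ± 52.7 CPM. Of 3 tested intracellular relatives of *Entpd1*, 0 passed, and *Entpd6* was the most abundant per kilobase, at 38.9 ± 2.51 and 37.5 ± 2.89 CPM.

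RNA of the choroid plexus was unequal between the embryos. *Ttr*, its best-known marker, was between 2127 and 2631 CPM in 3 of the WT embryos (15, 16 and 41), at 466.6 CPM in HET embryo 24 and between 0.770 and 11.7 CPM in the other 5. *Enpp2* followed it, at 41.8 to 50.2 CPM in the 3 WT embryos with high *Ttr* and 8.32 to 8.48 CPM in the other 2. Among the 9 genes *Adora2b* did so within WT, at 0.788 to 0.913 CPM with high *Ttr* and 0.241 to 0.331 CPM with low. HET embryo 24, with intermediate *Ttr*, had 0.538 CPM of *Adora2b*, against 0.455 to 0.536 CPM in the other HET embryos. With the choroid plexus score in the fit, the log2 fold change of *Enpp2* was −0.36, with the meningeal score −0.99, and among the embryos with *Ttr* under 100 CPM 0.08, so its direction turned there. *Alpl* went the other way, at 5.37 to 6.35 CPM in WT embryos with high *Ttr* and 6.91 to 8.92 CPM in those with low, and *P2rx7* overlapped, at 2.96 to 4.19 and 3.58 to 4.23 CPM. Among the embryos with low *Ttr* alone, the log2 fold change was −2.82 for *Alpl*, −1.82 for *P2rx7* and −0.88 for *Nt5e*, as large as or close to those in all 9 embryos. *Alpl* and *P2rx7* passed the threshold there too, where 0.0839% of genes did, and *Nt5e* did not.

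**Figure D5:**
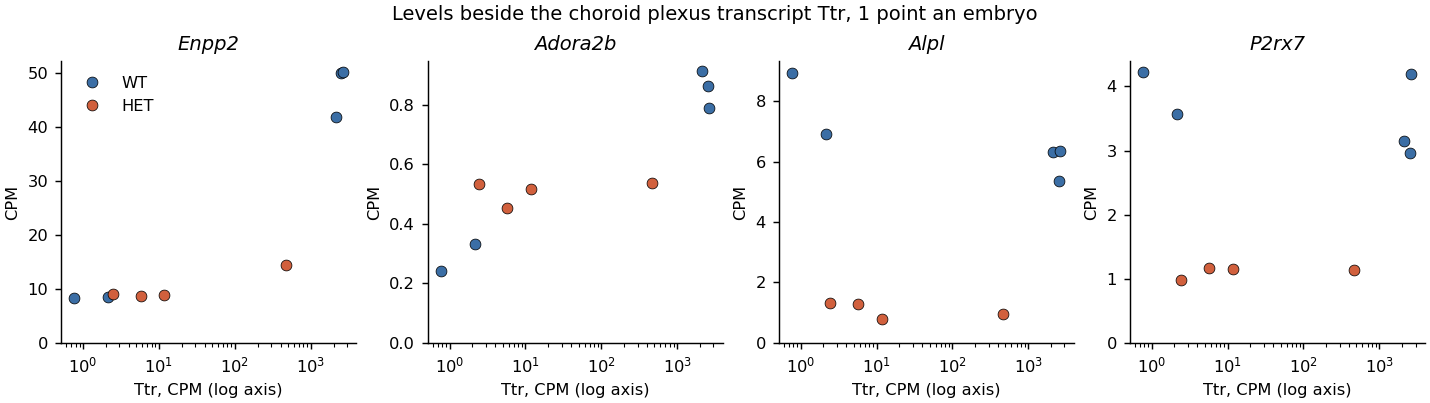
CPM of *Enpp2*, *Adora2b*, *Alpl* and *P2rx7* (y axes, from 0) against *Ttr* (x axis, CPM on a log scale), 1 point an embryo, WT in blue and HET in orange. *Enpp2* and *Adora2b* are highest in WT embryos 15, 16 and 41, whereas *Alpl* and *P2rx7* are lower in each HET embryo than in each WT embryo; no HET embryo reaches the *Ttr* level of those 3 WT embryos.

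Markers of other cell types that carry these genes were set beside them. The 8 endothelial markers summed to 119.6 to 177.1 CPM in WT and 115.7 to 127.6 CPM in HET embryos, the 7 mural markers to 109.1 to 143.4 and 102.5 to 122.1, and the 8 microglial markers to 55.2 to 72.3 and 57.3 to 70.3. The 8 markers of meningeal fibroblasts summed to 15.5 to 56.0 and 23.1 to 30.0 CPM. In each of these lists the groups overlapped, and 0 genes passed the threshold in edgeR, with 3 endothelial genes lower and 1 meningeal gene higher at an unadjusted p under 0.05, a level at which 3.09% of all genes tested were lower and 2.32% higher. *Slco1a4*, 1 of these 3 endothelial genes, followed *Ttr*. It was at 12.2 to 18.4 CPM in the WT embryos with high *Ttr*, 3.61 CPM in HET embryo 24 and 0.072 to 0.289 CPM in the rest. The 8 choroid plexus markers summed to 18.3 to 2850 CPM in WT and 28.1 to 528 CPM in HET embryos, and of these 0 passed and 6 were lower at an unadjusted p under 0.05. The 8 markers of astrocytes and radial glia summed to 1236 to 1374 CPM in WT and 941.0 to 1040 CPM in HET embryos, without overlap. Of that list, 3 genes were lower and 0 were higher at an unadjusted p under 0.05, and *Fabp7* alone passed after adjustment. *Fabp7* fell by 0.86 on the log2 scale, and without it the sums overlapped, at 623.8 to 714.3 and 606.6 to 689.1 CPM. *Aqp4*, an astrocyte water channel, was at 1.48 ± 0.317 CPM in WT (SD, n = 5), against 0.475 ± 0.415 CPM in HET (SD, n = 4), with no overlap between the groups, and did not pass. *Aldh1l1*, a folate enzyme and astrocyte marker, was at 22.1 ± 6.72 CPM in WT, against 9.89 ± 6.47 CPM in HET, a log2 fold change of −1.16 that did not pass. The log2 fold changes of *Gfap*, *Hopx* and *Aldoc* were 0.08, 0.10 and 0.15. The part of astroglial RNA in the values of *Alpl*, *P2rx7* and *Nt5e* was not tested. The 8 markers of the oligodendrocyte lineage summed to 58.6 to 92.0 and 62.7 to 104.2 CPM and the 6 blood markers to 207.5 to 566.8 and 378.0 to 442.0 CPM, each with overlap. Of the oligodendrocyte, blood and neuronal markers 0 passed in edgeR, with 2 oligodendrocyte genes higher at an unadjusted p under 0.05.

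The genes most like *Alpl* and *P2rx7* over the 9 embryos were found by the root mean square difference of centred log2 CPM among all tested genes. For *Alpl* these were *Gem* at 0.24, *Mt1* at 0.29, *Mt2* at 0.32, *Jam2* at 0.38 and *Zcchc24* at 0.40, where the median of all tested genes was 1.12. *Gem* is a small GTP-binding protein, *Mt1* and *Mt2* are metallothioneins, and *Jam2* is a junctional adhesion molecule. *Gem* was at 8.68 ± 1.79 CPM in WT (SD, n = 5), against 1.92 ± 0.301 CPM in HET (SD, n = 4). The counts of *Mt2* are uncertain, since 73.5% of its exonic bases are shared with an opposite-strand gene. For *P2rx7* they were *Rnd1* at 0.15, *Amz1* at 0.18, *Jam2* at 0.22, *Slc25a18* at 0.23 and *Kcnj10* at 0.26, with a median of 0.70 over all tested genes. *Slc25a18* is the mitochondrial glutamate carrier GC2 and *Kcnj10* is the astroglial potassium channel Kir4.1. *Rnd1* was at 12.6 ± 1.504 CPM in WT (SD, n = 5), against 4.58 ± 0.479 CPM in HET (SD, n = 4). *Jam2* was in both lists, at 47.1 ± 4.25 CPM in WT and 15.4 ± 1.61 CPM in HET embryos. The measure includes the difference between genotypes and says nothing of shared function or control.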

How the data were processed

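Forebrain RNA of 5 WT and 4 HET female embryos was extracted, captured by its poly(A) tail, made into TruSeq libraries and sequenced on an Illumina HiSeq instrument. Pairs were sequenced, and the authors used 1 read of each after a failure of the other. They aligned to GRCm38.p6 with STAR 2.7.9a (build and version from the submitters' processing notes) and assigned reads to genes by featureCounts and a GENCODE annotation. The deposited table holds raw counts, 1 column per embryo, which the authors did not normalize. The strand setting and the handling of reads with several alignments are not given in the sources used here. No pair of columns was identical.

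Here the counts were filtered with edgeR's filterByExpr (minimum count 10), which all 9 genes passed, and scaled by TMM. HET was compared with WT over all 9 embryos by edgeR's quasi-likelihood test (edgeR 4.0.16, R 4.3.3) without covariates, with Benjamini-Hochberg adjustment over all 17818 genes and a threshold of 0.05. SEs were taken from the fold change and its F statistic. DESeq2 1.42.0 and limma-voom (limma 3.58.1) were alternatives. CPM used the TMM-scaled library sizes, and log2 CPM a pseudocount of 0.5. Exon lengths, overlaps and gene coordinates came from GENCODE release M21 (GRCm38), which lists 55141 of the 55401 genes, and promoters from RefSeq (GRCm38.p6). The study names a later GENCODE release for its counting, so exon lengths and overlaps may differ from those behind the counts.

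The 9 genes and the gene lists were chosen with earlier results of these data known. Named were the 9 genes; of the other listed pathway genes, those past the threshold, the 4 with the lowest unadjusted p, the most abundant of each list and any whose groups did not overlap; and the 5 tested genes most like *Alpl* and *P2rx7*. *Gfap*, *Fabp7*, *Aqp4*, *Aldh1l1*, *Hopx*, *Aldoc* and *Slco1a4* were named, and the astroglial list was summed without *Fabp7*, after their values were seen. Each sample was taken as 1 embryo, following the group sizes of the study. The tests thus set the difference between genotypes against variation between embryos. Reads carry no molecular identifiers, so duplicate reads cannot be told from separate molecules. Counts and their depth are therefore not an exact measure of counting error, and they do not cover variation between embryos.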

Additional observations from a re-analysis of the deposited data

Results flagged for a closer look

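Among 38 groups of embryos examined for the 9 genes, *Npas3* and the marker sums, Dixon's test at 95% set 1 embryo apart in 4, which chance does in about 1 in 20 groups. *Entpd2* was at 7.10 CPM in HET embryo 5, against 7.83 to 7.91 CPM in the other HET embryos, a small difference in a tight group. *Npas3* was at 34.1 CPM in HET embryo 7, against 27.8 to 28.2 CPM in the other HET embryos. In the same embryo *P2rx7*, at 1.16 CPM, and *Alpl*, at 0.785 CPM, were not near the WT range. The summed choroid plexus markers were at 528 CPM in HET embryo 24, against 28.1 to 42.7 CPM in the other HET embryos. The summed neuronal markers were at 5265 CPM in WT embryo 5, against 5663 to 5711 CPM in the other WT embryos. WT embryo 5 also had the highest *Alpl*, *P2rx7* and *Nt5e* and the lowest *Entpd2*, *Adora1* and *Adora2b* of the WT embryos.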

How the results depend on the processing

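*Alpl* and *P2rx7* passed the threshold under all 18 alternatives, which were 9 fits that each left out an embryo and 9 others in filter, scaling, tool, covariate or embryos. Both met the 1 CPM filter through the WT embryos alone, so their calls in that fit are no support. All 18 fits reused these embryos or part of them, and the 9 genes were chosen with the comparison known. Passing in the 18 fits therefore describes only dependence on processing and is no independent support. The log2 fold changes ranged from −2.82 to −2.52 for *Alpl* and from −1.82 to −1.64 for *P2rx7*. The number of the 9 genes called was 2 in every fit without an embryo and 2 to 3 in the others, the third being *Nt5e* under DESeq2 and under the 1 CPM filter, which it met through the WT embryos alone, and 0 of the other pathway genes were called under any of the 18. The share of all genes called was between 0.0774% and 0.381%. The number of genes called in all was 25. It was 84 with DESeq2 and 15 among the embryos with *Ttr* under 100 CPM, and 14 to 23 when an embryo was left out, with 16 without HET embryo 5, 14 without HET embryo 6 and 16 without HET embryo 7; fewer embryos entered each of these fits, and the cause of the DESeq2 count was not tested. The direction of *Adora2b* turned in 2 of its 17 alternatives, to 0.36 with the choroid plexus score and 0.80 with low *Ttr*. *Enpp2*, of the wider pathway, was −0.36 and −0.99 with the choroid plexus and meningeal scores and 0.08 with low *Ttr*. *Entpd2* turned in 1 of 18, to −0.03 without WT embryo 5. The other genes of the 9 kept their direction. With the longest transcript as length, 3 genes changed place in the WT order of levels. No paired analysis was possible, and litter was not in the fit, because the labels used here name no litter. The labels of WT and HET share only 1 embryo number, and they do not say that a number marks a pair. Depth limits *Adora2b* most, at 10 to 50 counts per embryo.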
